A study of Mus musculus with 19 samples.

Results

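The plasminogen activation system was measured here through 4 genes: Plau, Plaur, Plat and Serpinb2. They were taken from a list of 5 symbols, each through a probe set annotated with that symbol alone, and are 4 of 22180 genes measured in this way. The fifth, Serpine2, was not analysed here. RNA from 19 mouse samples was hybridised to Affymetrix arrays, with 1 array per sample, and the deposited values are log2 intensities. The 7 tumors are angiosarcomas, malignant tumors of vessel lining cells, from mice of genotype aP2-Cre/+;DicerFlox/-. In these mice Cre recombinase is driven by the aP2 (Fabp4) promoter, which is best known from fat cells, and recombines a floxed allele of the microRNA-processing gene Dicer, the other allele being null. The normal samples are 4 aortas, 4 quadriceps femoris and 4 sternocleidomastoid muscles of wild type mice. All 19 came from a mixed C57Bl/6 and 129X1/SvJ strain background. Tissue and genotype therefore changed together between tumor and normal samples and cannot be told apart. The labels state no age, treatment or animal identity, so p-values measure the spread between these samples, which may in part be technical.

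Plasminogen is a circulating proenzyme that is cut into plasmin, the protease that dissolves fibrin and degrades matrix proteins. The cut is made by urokinase (the product of Plau), which acts mainly at cell surfaces, or by tissue plasminogen activator (Plat), which is released by endothelium and acts on fibrin clots. Plaur encodes the urokinase receptor, a lipid-anchored protein that concentrates urokinase on the cell surface. Serpinb2 encodes plasminogen activator inhibitor type 2, a serpin best known from activated macrophages and keratinocytes.

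Sequences upstream of the start sites are shown for Plaur, the member with the largest tumor difference, and for Serpinb2, the member whose signal differed most among the tumors. Both windows held a match to the AP-1 motif, which is bound by Fos and Jun proteins. They are RefSeq sequences of build GRCm38.p6, and each covers the 250 bases before an annotated start site, 5′ to 3′ on the gene's strand. The Plaur stretch is chr7:24462233-24462482 on the plus strand, and the Serpinb2 stretch is chr1:107511173-107511422 on the plus strand. Capitals mark the matches to TGANTCA.
Plaur: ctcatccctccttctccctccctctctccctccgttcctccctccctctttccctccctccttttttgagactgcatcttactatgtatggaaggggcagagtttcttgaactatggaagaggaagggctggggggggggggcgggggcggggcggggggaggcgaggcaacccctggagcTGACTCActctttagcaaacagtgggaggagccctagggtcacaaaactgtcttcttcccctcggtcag
Serpinb2: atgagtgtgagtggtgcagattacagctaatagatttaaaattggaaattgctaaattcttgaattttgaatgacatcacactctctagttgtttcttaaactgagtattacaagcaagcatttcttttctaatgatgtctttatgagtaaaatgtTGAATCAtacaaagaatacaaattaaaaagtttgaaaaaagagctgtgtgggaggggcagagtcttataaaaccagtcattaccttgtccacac
The Plaur match began 69 bases before the start site, and the Serpinb2 match began 94 bases before it. On either strand, TGANTCA was found in 2565 of 32851 RefSeq promoter windows of 300 bases (7.81%). The SP1 motif GGGCGG was present 3 times in the Plaur window and absent from that of Serpinb2, and 35.7% of all windows held it. These are matches of letters, not measured binding. Serpinb2 has a second annotated start site a short distance downstream, whose window held the same TGAATCA. The window of Serpine2, which was not analysed on the arrays here, held 0 matches to TGANTCA and 6 to GGGCGG. Plau and Plat did not match the promoter table.

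Plaur, Plau and Plat rose in the tumors against aorta, by 11.4-fold, 7.89-fold and 2.71-fold. The same genes rose against skeletal muscle, taken as the mean of the quadriceps and sternocleidomastoid groups, by 12.9-fold, 3.003-fold and 4.88-fold. In all 3 genes every tumor lay above every normal sample. Serpinb2 rose against muscle by 2.24-fold and had a log2 difference of 1.13 from aorta that missed the threshold, with tumor values that overlapped those of both normal tissues. Across all genes, 18.6% were called higher in tumor than in aorta and 25.3% higher than in muscle (limma adjusted p under 0.05), against 3 of 4 and 4 of 4 members. Groups did not overlap, with all tumors higher, for 12.2% of genes against aorta and 14.6% against muscle. Of all genes, 15% were called higher against both tissues. The tumors entered both comparisons, so the members' values in one are not independent of those in the other.

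**Figure D1:**
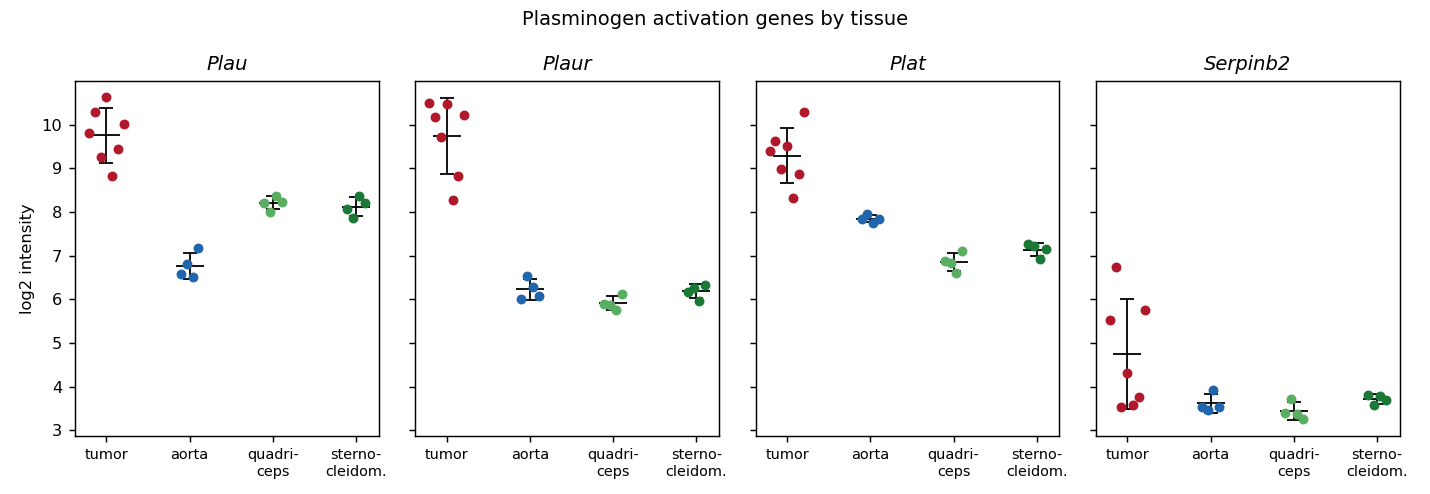
Log2 intensity of the 4 members (1 panel each) in every sample, with 1 point per array and black bars for the mean ± SD of 7 tumors, 4 aortas, 4 quadriceps and 4 sternocleidomastoid samples. All tumors lie above all normal samples for Plau, Plaur and Plat, while 4 of 7 tumors lie above every aorta for Serpinb2. Heights are comparable within a panel, not between panels, since each panel is a different probe set.

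The receptor gene Plaur had the widest separation. Its tumor log2 intensities ran from 8.28 to 10.50 with a median of 10.18. The aortas were at 6.01, 6.53, 6.29 and 6.09. The quadriceps samples were at 5.90, 5.87, 5.76 and 6.13, and the sternocleidomastoid samples at 6.18, 6.27, 5.97 and 6.34. The 12 normal samples thus shared a narrow low range, and the lowest tumor lay 1.75 log2 units above the highest aorta and 1.94 above the highest muscle sample. Group means were 9.74 ± 0.87 (SD, n = 7) in tumors and 6.23 ± 0.23 (SD, n = 4) in aortas. The tumor minus aorta log2 difference was 3.51 ± 0.32 (SE; limma adjusted p = 9.52e-08), which ranked 16th of all genes. Against muscle it was 3.69 ± 0.27 (limma adjusted p = 6.99e-10), ranking 22nd.

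Plau, the urokinase gene, separated the normal tissues too. Tumor log2 intensities ran from 8.83 to 10.63 with a median of 9.80. Aortas were the lowest group, at 6.58, 6.80, 6.52 and 7.18. Muscle lay between aorta and tumor, with quadriceps at 8.21, 8.01, 8.37 and 8.24 and sternocleidomastoid at 8.06, 7.86, 8.36 and 8.21. No pair of tumor, aorta and muscle overlapped, and the lowest tumor was 0.46 log2 units above the highest muscle sample. Group means were 9.75 ± 0.62 (SD, n = 7) in tumors and 6.77 ± 0.30 (SD, n = 4) in aortas. The log2 difference was 2.98 ± 0.25 (SE) from aorta (limma adjusted p = 2.82e-08) and 1.59 ± 0.20 from muscle (adjusted p = 1.81e-06). Aorta was lower than muscle by 2.63-fold, a log2 difference of -1.39 ± 0.24 (limma adjusted p = 0.000147). In that comparison 15.3% of all genes were called lower in aorta, and for 12.6% every aorta lay below every muscle sample.

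Plat, which encodes the fibrin-dependent activator, had aorta in the middle and muscle at the bottom. Its tumors ran from 8.33 to 10.28 in log2 intensity with a median of 9.40. The aortas were at 7.84, 7.94, 7.75 and 7.84, a tight group just under the lowest tumor. Quadriceps samples were at 6.87, 6.84, 6.61 and 7.10, and sternocleidomastoid samples at 7.26, 7.22, 6.92 and 7.15. The gap between the lowest tumor and the highest aorta was 0.38 log2 units, the smallest of the 3 activator and receptor genes. Group means were 9.28 ± 0.63 (SD, n = 7) in tumors and 7.84 ± 0.08 (SD, n = 4) in aortas. The log2 difference was 1.44 ± 0.24 (SE) from aorta (limma adjusted p = 8.51e-05) and 2.29 ± 0.20 from muscle (adjusted p = 8e-09). All 4 aortas lay above all 8 muscle samples, with a log2 difference of 0.85 ± 0.23 (limma adjusted p = 0.00816), where 17% of all genes were called higher in aorta and 14.6% had every aorta above every muscle sample.

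The inhibitor gene Serpinb2 had signal above the array median in 3 tumors only. Tumors 1, 2 and 7 were at 5.53, 6.75 and 5.76 log2 units, tumor 4 was at 4.31, and tumors 3, 5 and 6 were at 3.54, 3.59 and 3.76. The aortas were at 3.55, 3.46, 3.94 and 3.53. Quadriceps samples were at 3.41, 3.73, 3.38 and 3.27, and sternocleidomastoid samples at 3.81, 3.58, 3.79 and 3.70. Tumors 3, 5 and 6 thus lay inside the range of the normal samples, all 12 of which were below the median of their arrays, and a dim probe set understates a difference. Group means were 4.75 ± 1.27 (SD, n = 7) in tumors and 3.62 ± 0.22 (SD, n = 4) in aortas. The log2 difference was 1.16 ± 0.38 (SE) from muscle (limma adjusted p = 0.015) and 1.13 ± 0.46 from aorta (adjusted p = 0.0635). The difference from aorta passed the threshold without tumor 3, 5 or 6 (1.33, 1.32 and 1.30; limma adjusted p = 0.0254, 0.0248 and 0.0332). These tumors hold the lowest Serpinb2 values, so leaving any of them out raises the difference. Over all single arrays left out, it ran from 0.80 to 1.33 (limma adjusted p from 0.0248 to 0.129). The difference from aorta also passed with tumors 1 to 4 alone (1.41, limma adjusted p = 0.0171) and with a variance for each group (adjusted p = 0.0279), within a range of adjusted p from 0.0171 to 0.161 over its alternatives. The difference from muscle missed it with tumors 5 to 7 alone (0.79, limma adjusted p = 0.0594). A further probe set shared by Serpinb10 and Serpinb2 was left out by the rule. Its tumor mean of 4.51 was close to its aorta mean of 4.38, with 4.02 in quadriceps and 4.17 in sternocleidomastoid.

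Ordered by mean, each member was highest in tumor, but the order of the normal tissues differed between members. For Plau it was tumor, quadriceps, sternocleidomastoid and aorta. The muscles did not differ beyond their spread (log2 difference -0.09, 95% interval -0.67 to 0.50, limma adjusted p = 0.999), and sternocleidomastoid was above aorta (aorta minus sternocleidomastoid -1.35, adjusted p = 0.0011). For Plat it was tumor, aorta, sternocleidomastoid and quadriceps. Aorta was above quadriceps (0.99, limma adjusted p = 0.00855), while its difference from sternocleidomastoid missed the threshold (0.71, 95% interval 0.14 to 1.27, adjusted p = 0.0606). For Plaur it was tumor, aorta, sternocleidomastoid and quadriceps, and the aorta minus quadriceps difference between the ends of the normal tissues was 0.31 (95% interval -0.45 to 1.08, limma adjusted p = 0.599). For Serpinb2 it was tumor, sternocleidomastoid, aorta and quadriceps, and no pair of normal tissues passed the threshold (limma adjusted p from 0.859 to 0.999). Its tumors were above quadriceps (1.30, limma adjusted p = 0.0268) and missed the threshold against sternocleidomastoid (1.03, adjusted p = 0.0776). Between the muscles limma called 0 of 4 members, also at an unadjusted p under 0.05. Of all genes, 0.433% were called there in either direction at an adjusted p under 0.05. Background shares for the other pairs, also counting both directions, were 44.7% for tumor and quadriceps and 45.9% for tumor and sternocleidomastoid. They were 29.1% for aorta and quadriceps and 27% for aorta and sternocleidomastoid.

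**Figure D2:**
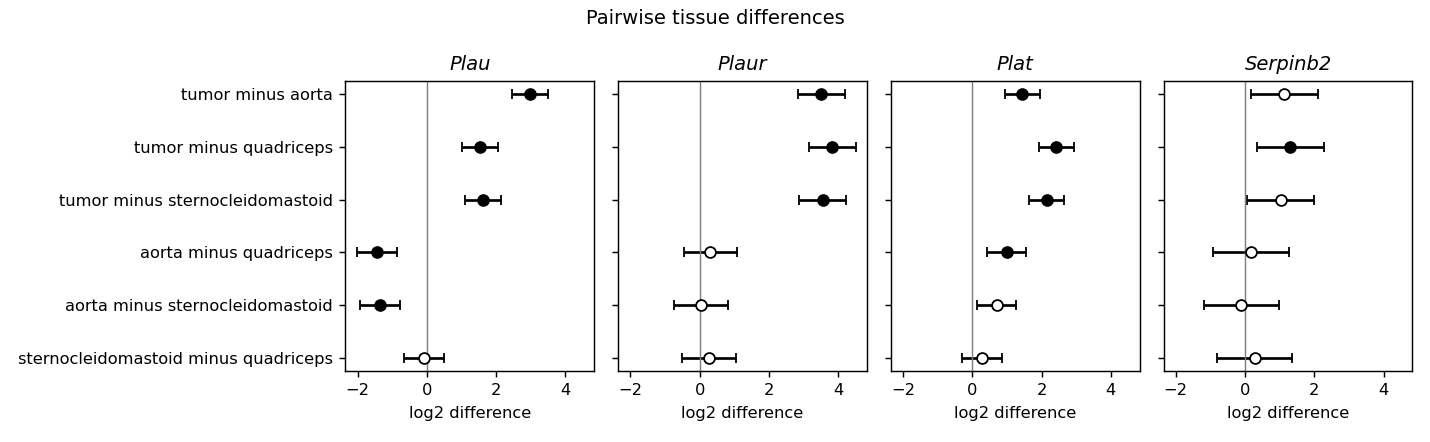
Log2 differences between each pair of tissues for the 4 members, with bars for the 95% interval of the limma fit and filled points where the adjusted p over all genes was under 0.05. Plau has negative aorta minus muscle differences and Plat positive ones, while the Plaur differences among normal tissues lie near 0.

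The same 3 tumors were the lowest for every member. Tumors 3, 5 and 6 had Plau at 9.26, 8.83 and 9.43 log2 units, against 9.80, 10.29, 10.63 and 10.01 in tumors 1, 2, 4 and 7. Their Plaur was at 9.72, 8.28 and 8.82, against 10.50, 10.18, 10.47 and 10.22. Their Plat was at 8.97, 8.33 and 8.86, against 9.40, 9.63, 9.50 and 10.28. The highest tumor differed by gene, being tumor 4 for Plau, tumor 1 for Plaur, tumor 7 for Plat and tumor 2 for Serpinb2. Over the 7 tumors Pearson's r was 0.83 for Plau and Plaur (rho 0.71), 0.82 for Plaur and Plat (rho 0.68) and 0.77 for Plau and Plat (rho 0.82). The two-sided exact permutation p for r was 0.0183, 0.0167 and 0.0425, and for rho 0.0881, 0.11 and 0.0341. After adjustment over the 6 member pairs computed, the exact permutation p for r was 0.0549, 0.0549 and 0.0696, and for rho 0.132, 0.132 and 0.102, so no pair passed. Without the 2 tumors farthest from the median of the first gene, r fell to 0.63 for Plau and Plaur (without tumors 4 and 5) and 0.39 for Plaur and Plat (without tumors 5 and 6). For Plau and Plat it was 0.76 without tumors 4 and 5. With Serpinb2, r was 0.63 for Plau (rho 0.75), 0.65 for Plaur (rho 0.57) and 0.75 for Plat (rho 0.82). The adjusted exact permutation p was 0.133, 0.133 and 0.0696 for r and 0.132, 0.2 and 0.102 for rho. Without the 2 farthest tumors chosen likewise, r was 0.99, 0.39 and 0.82. Serpinb2 was high in tumors 1, 2 and 7, at normal levels in tumors 3, 5 and 6, and between in tumor 4. These r therefore rest on few tumors with signal.

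Title codes of tumors 1 to 4 precede those of the normal samples and codes of tumors 5 to 7 follow them, and the labels name no batch. Plaur had a mean of 10.22 ± 0.36 (SD, n = 4) in the former and 9.11 ± 1.002 (SD, n = 3) in the latter, and both lay above all normal samples. These sets of tumors were too small for a correlation within each.

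Marker levels of other cells differed among these tumors. The summed log2 level of 10 skeletal muscle markers was lowest in the same tumors 3, 5 and 6 (70.0, 53.4 and 57.3) and was 90.8, 103, 87.5 and 93.3 in tumors 1, 2, 4 and 7. The sum of 6 platelet markers was lowest in these tumors too (48.9, 45.8 and 46.6), against 61.8, 51.3, 55.1 and 62.9. The sum of 10 neutrophil markers was highest in tumor 2 (74.2), the tumor with the highest Serpinb2. It was 60.9 in tumor 3, which had the lowest Serpinb2, as in tumor 1 (60.9), and it was 61.5 in tumor 7 and 53.8, 52.6 and 50.5 in tumors 4, 5 and 6. The sum of 12 macrophage markers was highest in tumors 2 and 7 (113.8 and 113.6) and 103 to 107 in the others. In tumors 1 to 7 the endothelial sums were 107.6, 99.9, 108.5, 104.3, 102.3, 106.6 and 97.8, lowest in tumors 2 and 7. In the same order the fibroblast sums were 103.5, 100.4, 94.8, 101.5, 96.5, 100.7 and 108.1. Brown fat sums were 43.4, 43.2, 39.4, 66.3, 65.8, 46.4 and 43.9. The part of these cells in the member values was not tested.

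**Figure D3:**
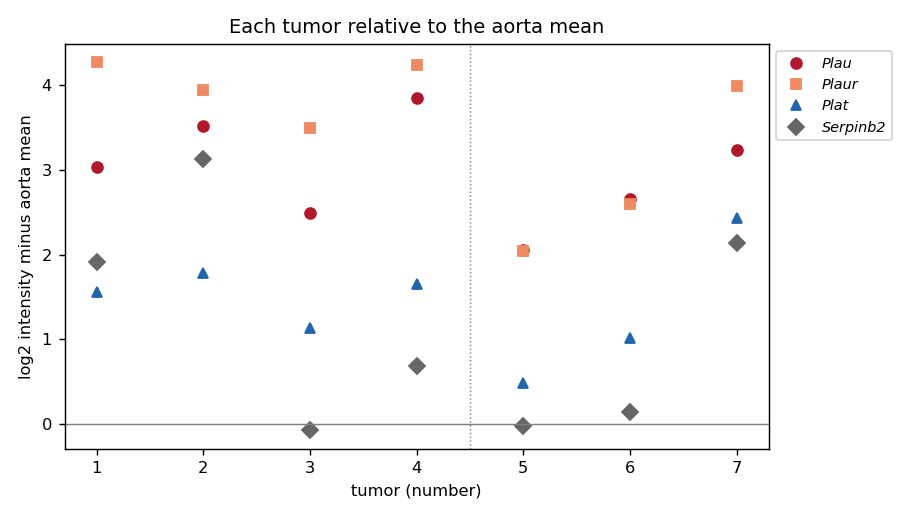
Log2 intensity of each member in each of the 7 tumors minus that gene's mean over the 4 aortas, with a dotted line between tumors 1 to 4 and 5 to 7. Tumors 3, 5 and 6 hold the lowest 3 values of all 4 members, and Serpinb2 is near the aorta mean there.

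The normal tissues held the markers of their labels, and the aorta and sternocleidomastoid samples held signal of other tissues too. Skeletal muscle markers summed to 118 to 123 log2 units in the muscles and smooth muscle markers to 95.7 to 99.9 in the aortas. All 10 endothelial markers were higher in tumor than in aorta and muscle, with summed log2 levels of 97.8 to 108 in tumors and 84.2 to 85.7 in aortas. In bulk tissue, fewer cells of a type and less RNA per cell cannot be told apart, and this holds for every member. Macrophages, neutrophils and platelets can hold urokinase, its receptor or the inhibitor. For the marker counts that follow, 18.6% of all genes were called higher in tumor than in aorta and 25.3% higher than in muscle. Of all 22180 genes, 8023 were called against aorta, 4131 of them higher and the rest lower. Against muscle 5691 were called lower. Macrophage markers were higher in tumor than in aorta for 11 of 12 genes, with sums of 103 to 114 against 87.2 to 91.0. Neutrophil markers were higher for 6 of 10, with sums of 50.5 to 74.2 against 44.4 to 46.4, though Ly6g was below the array median in all 7 tumors. Platelet markers were higher for 6 of 6, with sums of 45.8 to 62.9 against 38.9 to 45.9. Fibroblast markers were higher for 4 of 10, with sums of 94.8 to 108 against 91.6 to 95.3. The aorta samples also held markers of brown fat (sums of 85.8 to 90.8 against 39.4 to 66.3 in tumors), heart muscle (76.8 to 80.2 against 41.6 to 50.03) and mesothelium (39.9 to 44.6 against 32.5 to 36.6). Brown fat sums were 70.1 to 79.9 in sternocleidomastoid and 57.6 to 68.0 in quadriceps. Of 8 brown fat markers 2 were called higher in sternocleidomastoid than in quadriceps, where 0.433% of all genes were called in either direction. Smooth muscle markers were lower in tumor than in aorta for 6 of 10. Peripheral nerve markers were lower for 2 of 5 and mast cell markers higher for 1 of 7. Against muscle, markers were higher in tumor for 11 of 12 macrophage, 7 of 10 neutrophil, 6 of 6 platelet and 5 of 10 fibroblast genes. Of 10 smooth muscle markers 7 were higher and 3 lower, and all 10 skeletal muscle markers were lower (median log2 difference -4.44), with sums of 53.4 to 103 in tumors. Macrophage sums were 79.8 to 90.9 in quadriceps and 84.1 to 85.6 in sternocleidomastoid, neutrophil sums 43.7 to 44.3 and 43.01 to 44.9, and platelet sums 33.2 to 36.2 and 37.7 to 40.9. Brown fat markers were lower than in muscle for 5 of 8, heart muscle markers for 4 of 8 and peripheral nerve markers for 1 of 5, and mast cell markers were higher for 1 of 7 and lower for 1. The part of these cells in the member differences was not tested.

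Other genes of the system did not move as a block. Of 25 measured genes of substrates, inhibitors, cofactors and clearance receptors, 7 rose and 6 fell against aorta, with a median log2 difference of 0.09, and 10 rose and 4 fell against muscle, with a median of 0.30. Over all genes the medians were -0.02 and -0.04, and 18.6% and 25.3% were called higher. Of all 22180 genes, 8023 were called against aorta, 4131 of them higher and the rest lower. Against muscle 5617 were called higher and 5691 lower. With arrays centred on housekeeping genes the list medians were -0.013 and -0.010, and 10 genes rose and 10 fell against muscle. Of the 13 housekeeping genes, 7 were themselves called higher and 4 lower against muscle. Plg, which encodes plasminogen itself and is made mainly in liver, was near the array median throughout, at 5.34 ± 0.13 (SD, n = 7) in tumors and 5.49 ± 0.20 (n = 4) in aortas. Its difference was -0.15 from aorta (limma adjusted p = 0.318) and -0.22 from muscle (adjusted p = 0.0463). The call against muscle was lost without tumor 1, 3, 5 or 7, aorta 1, any quadriceps sample or sternocleidomastoid 1 or 3 (limma adjusted p from 0.0509 to 0.107). Serpinf2, the gene of the plasmin inhibitor alpha 2-antiplasmin, had means of 5.29 ± 0.20 (SD, n = 7) in tumors and 5.46 ± 0.24 (n = 4) in aortas and passed neither test (limma adjusted p = 0.314 and 0.0664). Against muscle its difference of -0.22 passed without tumor 7 (-0.28, limma adjusted p = 0.0221) and under each other scaling of the arrays (adjusted p from 0.000194 to 0.0428).

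Anxa2 and S100a10 encode the subunits of a surface complex that binds plasminogen and tissue plasminogen activator. Anxa2 rose by 1.36 ± 0.15 log2 units (SE) against aorta and by 2.41 ± 0.12 against muscle (limma adjusted p = 8.35e-07 and 6.02e-12). S100a10 rose against muscle (1.17 ± 0.14, limma adjusted p = 5.78e-07), while its difference from aorta was 0.32 ± 0.17 (adjusted p = 0.152, and 0.0121 after quantile normalization). Plgrkt, which encodes a transmembrane plasminogen receptor, fell by 0.50 ± 0.15 against aorta (limma adjusted p = 0.0111), and its difference from muscle was 0.13 (adjusted p = 0.419; -0.18 with housekeeping centring). Its decrease against aorta was lost with tumors 5 to 7 alone (-0.25, limma adjusted p = 0.25).

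Receptors that take up urokinase and tissue activator complexes went different ways. Lrp1, an endocytic receptor of protease and inhibitor complexes, had a log2 difference of 0.39 ± 0.17 (SE) from aorta (limma adjusted p = 0.0817; 0.0106 without tumor 3) and rose by 1.35 ± 0.14 against muscle (adjusted p = 8.77e-08). Vldlr, a relative of Lrp1 that also takes up triglyceride-rich lipoproteins, fell by 1.67 ± 0.38 against aorta and by 2.24 ± 0.32 against muscle (limma adjusted p = 0.00174 and 5.53e-06). Mrc2, the collagen receptor that associates with the urokinase receptor, rose by 1.18 ± 0.26 and 1.05 ± 0.21 (limma adjusted p = 0.00111 and 0.000303). Vtn, whose product vitronectin binds the urokinase receptor, rose against aorta (1.32 ± 0.40, limma adjusted p = 0.0139) with a difference from muscle of 0.30 ± 0.33 (adjusted p = 0.486). Against muscle Vtn was at -0.30 in tumors 1 to 4 alone (limma adjusted p = 0.0595), at 1.09 in tumors 5 to 7 alone (adjusted p = 0.0187) and at -0.010 with housekeeping centring, and its call against aorta was lost with only these groups in the fit (adjusted p = 0.0644). Thbd, the endothelial thrombin receptor thrombomodulin, rose by 1.28 ± 0.26 and 1.89 ± 0.22 (limma adjusted p = 0.000705 and 4.11e-07). Hgf, a growth factor related in structure to plasminogen, rose by 1.49 ± 0.22 against muscle (limma adjusted p = 9.8e-06), where it was below the array median in all 8 samples. Against aorta Hgf rose by 1.08 ± 0.27 (limma adjusted p = 0.0033).

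Integrins and other surface partners of the urokinase receptor were called higher in 9 of 11 cases against aorta (median log2 difference 1.37) and in 10 of 11 against muscle (median 2.26). The shares of all genes called higher were 18.6% and 25.3%. Itgb3, the beta chain of the vitronectin receptor, rose by 2.04 ± 0.58 (SE) and 3.61 ± 0.48 (limma adjusted p = 0.00863 and 2.4e-06), and the call against aorta was lost with tumors 5 to 7 alone (1.09, adjusted p = 0.242). Itga3, a laminin receptor chain, rose by 1.72 ± 0.26 and 2.97 ± 0.21 (limma adjusted p = 2.68e-05 and 5.9e-10). Itga5, the fibronectin receptor chain, rose by 1.61 ± 0.27 against aorta and 3.19 ± 0.22 against muscle (limma adjusted p = 7.71e-05 and 3.45e-10). Itgam, a myeloid integrin chain, rose by 2.13 ± 0.35 and 2.53 ± 0.29 (limma adjusted p = 7.01e-05 and 3.46e-07), and the myeloid receptor gene Fpr2 by 2.18 ± 0.40 against aorta (adjusted p = 0.000244), where it was dim (3.76). Against muscle Fpr2 rose by 2.26 ± 0.33 (limma adjusted p = 9.37e-06).

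Plasmin substrates and proenzymes were called higher in 7 of 11 cases against either tissue (median log2 differences 1.38 and 1.55), beside 18.6% and 25.3% of all genes. The 4 not called against either tissue were Mmp10 and the fibrinogen chain genes Fga, Fgb and Fgg, which had tumor means of 4.10, 4.41 and 3.93. The collagenase gene Mmp13 rose by 3.36 ± 0.63 (SE) against aorta and 3.66 ± 0.52 against muscle, from dim means of at most 4.02 in the normal tissues (limma adjusted p = 0.000298 and 6.35e-06). Tgfb1, whose latent product plasmin can release, rose by 2.38 ± 0.21 and 3.16 ± 0.17 (limma adjusted p = 5.37e-08 and 1.38e-11). The elastase gene Mmp12 rose by 2.02 ± 0.28 and the neutrophil collagenase gene Mmp8, which is also among the neutrophil markers used here, by 1.57 ± 0.52 against aorta (limma adjusted p = 1.05e-05 and 0.0219). The Mmp8 call against aorta was lost without aorta 1 (1.4995, limma adjusted p = 0.0581) and with the compared groups alone (adjusted p = 0.0837). Against muscle Mmp12 and Mmp8 rose by 2.26 ± 0.23 and 1.55 ± 0.43 (limma adjusted p = 7.12e-08 and 0.00467). The stromelysin gene Mmp3 and the fibronectin gene Fn1 rose against muscle by 2.58 ± 0.25 and 2.52 ± 0.20 (limma adjusted p = 3.99e-08 and 2.85e-09). Against aorta they rose by 1.41 ± 0.30 and 1.38 ± 0.25 (limma adjusted p = 0.00103 and 0.000174).

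The serpin relatives of Serpinb2 were mostly not called against aorta. Of 16 other measured clade B and E serpins, 1 was called higher against aorta, Serpinb6a (0.47 ± 0.16 SE, limma adjusted p = 0.0257), with a list median of 0.03, where 18.6% of all genes were called higher. Against muscle 4 were higher and 1 lower, with a median of 0.14, and 4 of 16 is near the 25.3% of all genes called higher there. Of all 22180 genes, 5691 were called lower in that comparison. Serpinb9, an inhibitor of granzyme B, rose by 1.24 ± 0.18 and Serpinb6b by 1.06 ± 0.23 (limma adjusted p = 1.06e-05 and 0.000751). Serpinb8 and Serpinb1a rose by 0.67 ± 0.11 and 0.62 ± 0.24 (limma adjusted p = 2.38e-05 and 0.0387), and Serpinb6a was lower than in muscle by 1.33-fold (adjusted p = 0.0127). The Serpinb6a call against aorta was lost without aorta 1 or 4 (0.41 and 0.39, limma adjusted p = 0.0853 and 0.103), with either set of tumors alone (0.0588 and 0.09) and with housekeeping centring (0.0771). Its call against muscle was lost with tumors 5 to 7 alone (limma adjusted p = 0.0824). The Serpinb1a call was lost without tumor 2, 4 or 7, quadriceps 1, 2 or 4 or any sternocleidomastoid sample (limma adjusted p from 0.0501 to 0.0931; 0.39 without tumor 4) and under every other scaling (0.0505 to 0.223). With housekeeping centring 3 of these serpins were higher and 7 lower against muscle.

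**Figure D4:**
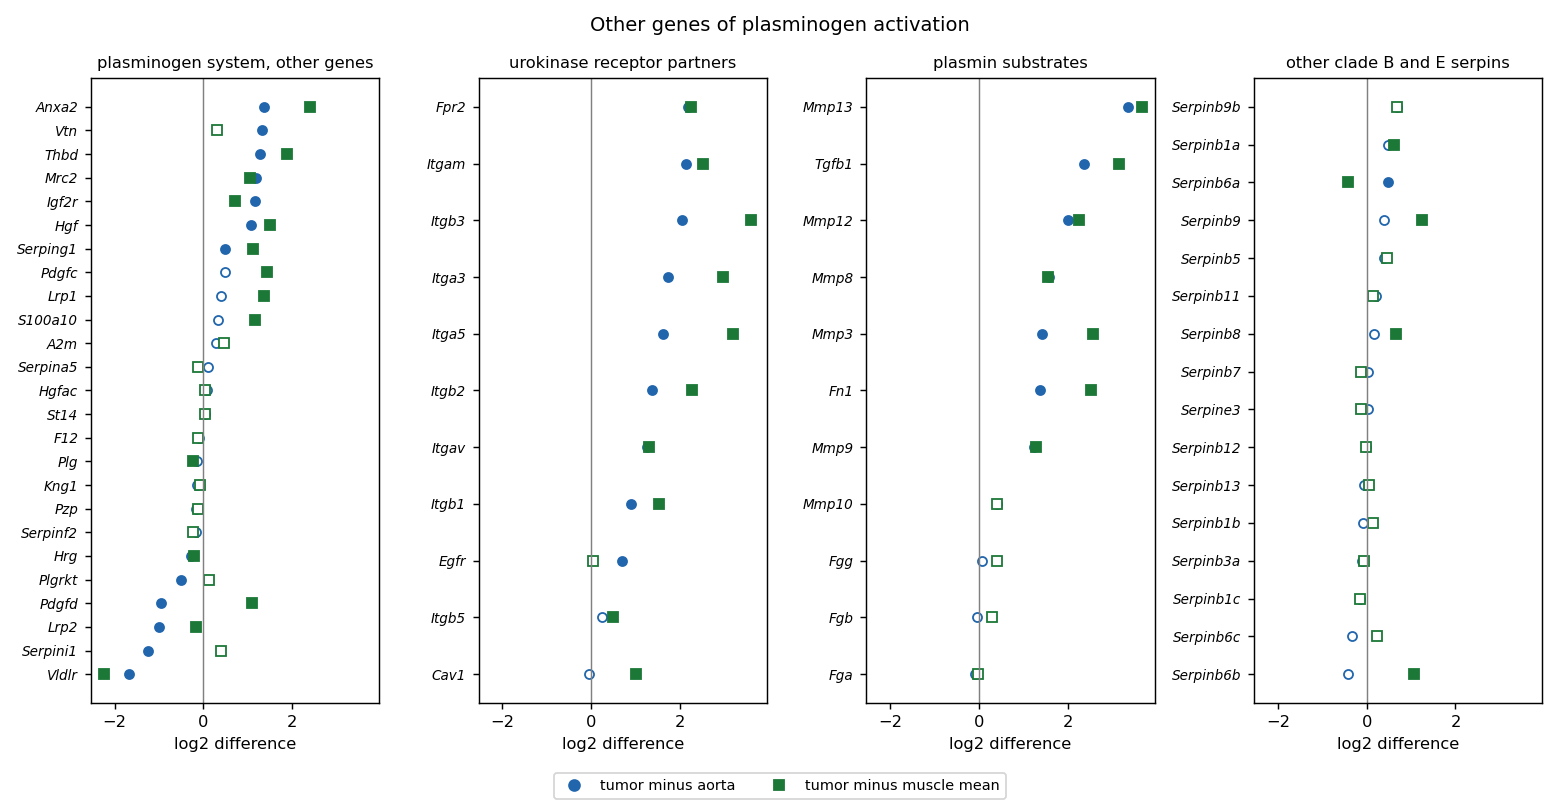
Log2 differences of tumor from aorta (circles) and from the muscle mean (squares) for the measured genes of 4 lists, 1 panel per list, with filled symbols where the limma adjusted p over all genes was under 0.05. Receptor partners and plasmin substrates lie mostly to the right of 0, whereas the other system genes spread to both sides and the other serpins lie near 0 against aorta.

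Genes whose profile over the 19 arrays lay closest to each member, after centring each gene on its own mean, were found by the smallest root mean square difference. For Plaur these were Ripk3 (0.31 log2 units), Rgs16 (0.37) and Mmp14 (0.42), against an SD of 1.88 for Plaur over the arrays. For Plat they were Efhd2 (0.19), Myof (0.19) and S100a6 (0.22), against an SD of 1.12. For Plau they were Ddah1 (0.44), Ammecr1 (0.49) and Tnfrsf23 (0.49), against an SD of 1.21, so its nearest profiles fitted less closely than those of Plat. For Serpinb2 they were Hilpda (0.27), Fbln2 (0.28) and Ier3 (0.34), against an SD of 0.94. Ddah1, like Plau, had its highest mean log2 intensity in tumor (9.97) and its lowest in aorta (6.97), with sternocleidomastoid at 8.71 and quadriceps at 8.17.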

How the data were processed

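Biotin-labelled cRNA from total RNA was hybridised to Affymetrix arrays, per the labels' protocols. The authors deposited 1 table of 41345 probe sets and 19 arrays, read here as log2 intensities because values ran from 1.6 to 14 with array medians of 5.3 to 5.5. Partek 6.6 is named in the submitters' processing notes; its role, and how the values were normalized, is not given in the sources used here. Of the probe sets, 23521 had 1 gene symbol, 1814 several and 16010 none. Single-symbol probe sets were used, and per gene the one with the highest mean over the 19 arrays, which left 22180 genes. A model with 1 mean per tissue was fitted to all arrays (limma 3.58.1, lmFit and eBayes, R 4.3.3, two-sided), with Benjamini-Hochberg adjustment over all genes and a threshold of 0.05. Figures used Python 3.11.15 and matplotlib 3.10.9. The pipeline was tested on simulated data. The number of arrays limits the precision.

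The members and gene lists were chosen with earlier results of these data known. Genes were named by a rule: the members, a set of system genes given as values, up to 4 called genes with the largest difference per list and comparison, and the 3 nearest profiles per member. Igf2r, Pdgfd and other listed genes enter counts only. Alternatives were other scalings (median gene, housekeeping list, quantile), a filter on dim genes, the mean over probe sets, other variance models, the compared groups alone, a stricter threshold (0.01), a 2-fold minimum, single muscle groups, tumors 1 to 4 or 5 to 7 alone, and leaving out each array.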

Additional observations from a re-analysis of the deposited data

Results flagged for a closer look

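Among the 124 sets of a named gene in a tissue, 4 held a sample far from the others of its group, and chance gives about 1 in 20. Tumor 7 had the highest Anxa2, at 11.38 log2 units against 11.01 in the next tumor. Aorta 4 had the lowest Itga3, at 7.23 against 7.43 in the next aorta. Tumor 5, the tumor with the lowest Plau, Plaur and Plat, had the lowest Fn1, at 11.35 against 12.43 in the next tumor. Sternocleidomastoid sample 3 had the lowest Fn1 of its group, at 9.89 against 10.30. No member was among these sets.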

How the results depend on the processing

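The tumor differences of Plau, Plaur and Plat kept their direction and passed the threshold under all 31 alternatives against aorta and all 33 against muscle. They ranged from 2.65 to 3.22, 2.88 to 3.99 and 1.27 to 1.598 against aorta, and from 1.26 to 1.83, 3.05 to 4.17 and 1.98 to 2.45 against muscle. Serpinb2 was less stable. Its difference from aorta, 0.80 to 1.33 with single arrays left out, passed with 1 variance per group (1.13) and with tumors 1 to 4 only (1.41). Its difference from muscle did not pass at a threshold of 0.01 (1.16), with tumors 5 to 7 only (0.79) or against sternocleidomastoid alone (1.03). Its aorta minus muscle difference, which passed under no setting, was negative when centred on the median gene (-0.027) or housekeeping genes (-0.17) and against sternocleidomastoid alone (-0.10), and ran from -0.072 to 0.086 with single arrays left out. That of Plaur, also never past the threshold, was -0.026 after housekeeping centring. The Plat call between aorta and muscle was lost at a 2-fold minimum (0.85) and against sternocleidomastoid alone (0.71). Plau between the muscles ran from -0.16 to 0.0014 with single arrays left out. The filter on dim genes left out Serpinb2.

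Counts over all genes fell at a 2-fold minimum to 2569 of 8023 (tumor and aorta), 3863 of 11308 (tumor and muscle), 1993 of 7168 (aorta and muscle) and 52 of 96 (muscles), and the 13 called system genes against aorta to 8. Between the muscles the count was 219 with 1 variance per group, 200 with these groups alone, 49 at a threshold of 0.01 and 52 to 123 with single arrays left out. Housekeeping centring shifted the median gene by -0.10 against aorta and -0.31 against muscle. Against muscle it gave 17019 called genes, 3575 higher and 13444 lower, in place of 5617 and 5691, and 10 system genes lower in place of 4. Of the 13 measured housekeeping genes, 5 were themselves called higher and 2 lower against aorta (median log2 difference 0.26). Against muscle 7 were higher and 4 lower (median 0.57). This centring thus does not rest on genes that were level between the tissues. The cause of the shift was not tested.

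For the other named genes the same alternatives were added after the data were seen. Calls changed by the threshold of 0.01 or the 2-fold minimum are not listed for these genes. Lrp1 passed against aorta with tumors 5 to 7 only (0.61, limma adjusted p = 0.00835) and after quantile normalization (0.047), Plgrkt against muscle with tumors 5 to 7 only (0.37, 0.0333), Serpinb6b against aorta with tumors 1 to 4 only (-0.75, 0.0453) and Serpinb9 against aorta without tumor 2 (0.53, 0.0434). Plg against muscle was also lost with 1 variance per group (0.075), with either set of tumors (0.0844 and 0.224) and against either muscle (0.0669 and 0.167), and Serpinb1a with the compared groups alone (0.0627), tumors 5 to 7 only (0.142) and sternocleidomastoid alone (0.198). Reversed differences, all past no threshold, were Plgrkt against muscle (-0.18 with housekeeping centring, -0.061 with tumors 1 to 4 only), Vtn against muscle (-0.010 and -0.30 likewise) and Serpinb6b against aorta (0.022 with tumors 5 to 7 only).

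Alternatives for Serpine2 were not run. No paired analysis was possible because the labels give no replicate numbers shared between groups. Background signal limits Serpinb2, Mmp13 and other dim genes.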
